A study of Mus musculus with 2 samples.

Results

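The genes described here are 8 members of the activin, follistatin and anti-Müllerian hormone (AMH) signalling group in the fetal mouse ovary: Inha, Inhba, Inhbb, Fst, Acvr1b, Acvr2a, Acvr2b and Amhr2. They were taken by symbol, and all 8 were found among the 27998 genes listed in each single-cell RNA-seq matrix. Single cells were captured from ovaries at E15.5, named for days of embryonic development, with 10X 3′ v3 chemistry, after live germ cells had been sorted by the Pou5f1-GFP transgene (OCT4-GFP) and mixed with somatic cells at a ratio of 60 to 40. One library, KO, came from 2 embryos homozygous for a deletion of Nr3c1, the gene of the glucocorticoid receptor (GR), and the other, WT, from 4 embryos with intact GR. Embryos of both groups carried the Pou5f1-GFP transgene, were female, and had their ovaries pooled by genotype after the mesonephroi were removed. The deletion was inherited from heterozygous parents and so was not limited to germ or somatic cells. The comparison asks how these genes differ between cell types and whether their levels differ with loss of GR. Each genotype is 1 library, so genotype cannot be told apart from embryo pool, sort and capture. No test between the libraries was possible, and all intervals below are exact 95% intervals that cover counting error only.

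Activins and inhibins are dimers of the TGF-β family built from shared subunits. Inhba and Inhbb encode the activin βA and βB subunits, which pair with each other to form activins or with the α subunit, encoded by Inha, to form inhibins. Activins bind the type II receptors encoded by Acvr2a and Acvr2b, which then recruit the type I receptor ALK4, encoded by Acvr1b, and signal through SMAD2 and SMAD3, while follistatin, encoded by Fst, binds activin and blocks it. Amhr2 encodes the type II receptor for AMH, the hormone that causes the Müllerian ducts to regress in males. In the fetal ovary follistatin is known as a product of the female somatic programme that supports germ cell survival.

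After the study's limits on cells were applied, 9045 WT and 15502 KO cells remained, with median depths of 15685 and 10194 UMIs (unique molecular identifiers, each counting 1 captured transcript). Only 75 barcodes occurred in both matrices. Clustering gave 14 clusters, which fell into germ-like (6790 WT and 10196 KO cells), granulosa-like (939 and 2044), theca-like (841 and 1940), epithelia-like (399 and 1081) and 3 small classes of endothelia-like, immune-like and erythroid-like cells with 15 to 137 cells per library. The 8 genes and their pathway relatives were kept out of the clustering. Every marker of each class was detected and was higher in that class than in all other cells of the same library pooled. Markers of germ cells summed to 590 CPM (UMIs of a gene scaled to a class total of 1000000) in WT and 932 CPM in KO granulosa-like cells and to 778 and 1257 CPM in theca-like cells, against 4915 and 5647 CPM in germ-like cells. Set against single classes the order could differ: the granulosa marker Lgr5 was 95.3 and 92.9 CPM in granulosa-like but 116 and 113 CPM in epithelia-like cells. Epithelia-like cells held 1559 and 1543 CPM of granulosa markers beside 2020 and 1843 CPM of their own. Markers of another class were held by 94.7% of WT and 88.1% of KO epithelia-like cells. Scrublet, which finds droplets that resemble 2 cells, called 5.22% of WT and 11.7% of KO granulosa-like cells and 6.90% and 14.0% of theca-like cells. As a check of the labels, Nr3c1 fell from 71.9 CPM in WT to 11.6 CPM in KO germ-like cells, and its log2 KO over WT ratio lay between −2.63 and −1.89 in the 4 main classes. The 3′ reads left do not tell whether the remaining transcripts carry the deletion.

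The proximal promoters of 3 members are shown because the receptor deleted here is a DNA-binding factor and because the data single these genes out: Amhr2 for its level in the somatic classes, and Inhba and Inhbb as the only members whose KO over WT ratio passed the size limit given below. The RefSeq table (GRCm38.p6) held promoters for 7 members, with Fst the missing entry. Each sequence gives the 250 bases before the transcription start, 5′ to 3′ on the strand of the gene. Capitals mark the letters AAGGTCA, the half-site bound by the steroidogenic factor NR5A1.
Amhr2, chr15:102445117-102445366, plus strand: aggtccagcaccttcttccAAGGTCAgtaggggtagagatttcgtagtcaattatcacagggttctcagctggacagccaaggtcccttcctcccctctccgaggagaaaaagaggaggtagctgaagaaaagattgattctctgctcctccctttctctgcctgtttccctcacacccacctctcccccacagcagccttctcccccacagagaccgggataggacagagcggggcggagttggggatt
Inhba, chr13:16011601-16011850, plus strand: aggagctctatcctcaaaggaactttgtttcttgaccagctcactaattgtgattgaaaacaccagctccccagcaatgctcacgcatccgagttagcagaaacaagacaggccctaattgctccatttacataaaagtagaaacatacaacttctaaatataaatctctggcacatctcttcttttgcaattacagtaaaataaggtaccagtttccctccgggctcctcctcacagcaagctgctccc
Inhbb, chr1:119422249-119422498, minus strand: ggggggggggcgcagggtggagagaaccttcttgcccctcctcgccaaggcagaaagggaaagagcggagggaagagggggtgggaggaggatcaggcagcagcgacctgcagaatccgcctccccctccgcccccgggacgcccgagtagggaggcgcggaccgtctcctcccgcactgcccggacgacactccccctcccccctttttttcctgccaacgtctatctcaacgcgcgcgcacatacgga
The full glucocorticoid response element was searched as AGAACA and TGTTCT with any 3 bases between them, and its half-site AGAACA on both strands. Neither matched any of the 7 member windows, each taken before the RefSeq start. Among 32851 promoters of the same length, 0.00913% held the full element and 16.1% the half-site. The half-site is a part of the full element, so a promoter with the latter also holds the former. The NR5A1 half-site, also searched on both strands, was present in the Amhr2 window alone among the 7, starting 231 bases before the start. It was present in 4.08% of all promoters. Such matches describe the letters of the window and nothing about binding. In the GENCODE M21 annotation of the same build, Fst lies at chr13:114452290-114458951 on the minus strand and Inha at chr1:75507077-75510366 on the plus strand, and all 8 are protein-coding genes. The Inha window, chr1:75507359-75507608, thus lies inside the gene as annotated there. The bases before the GENCODE start of Inha were not searched, so the results above do not describe them. The windows of Acvr1b and Acvr2b also end past the GENCODE starts of those genes.

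The 3 subunit genes were found in different cells. Inha, the inhibin α subunit, was highest in granulosa-like cells, at 84.4 CPM in WT (79.4 to 89.6) and 83.3 CPM in KO (79.3 to 87.5). Epithelia-like cells held 9.12 and 9.87 CPM of Inha, theca-like cells 8.66 and 7.77 CPM, and germ-like cells 3.67 and 3.05 CPM. Granulosa-like cells thus led in both libraries, and the epithelia-like and theca-like levels did not differ beyond counting error. Inha was detected in 54.5% of WT and 44.4% of KO granulosa-like cells but in 6.21% and 3.48% of the deeper germ-like cells, with median depths of 12670 and 8502.5 UMIs in the first class and 17100 and 11317 in the second. After each cell was thinned to 3000 UMIs the granulosa-like shares were 20.4% and 22.2%, so the higher share in WT was not kept at equal depth.

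Inhba, the βA subunit, was a theca-like gene. Its level was 28.8 CPM in WT (25.6 to 32.4) and 19.2 CPM in KO (17.1 to 21.5) theca-like cells. In the 3 other main classes of either library it lay between 0.255 and 1.05 CPM, on 7 to 32 UMIs each. The order below theca-like cells therefore rested on few transcripts. Inhba was detected in 20.9% of WT and 12.8% of KO theca-like cells, and in 8.09% and 6.55% after thinning.

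Inhbb, the βB subunit, was highest in epithelia-like cells, at 14.3 CPM in WT (11.7 to 17.3) and 17.0 CPM in KO (14.9 to 19.4). Granulosa-like cells followed at 10.5 and 10.4 CPM, below the epithelia-like level beyond counting error in both libraries. Germ-like cells held 3.88 CPM in WT (3.53 to 4.24) and 2.58 CPM in KO (2.30 to 2.88), and theca-like cells 1.53 and 2.61 CPM. Theca-like cells, which held most of the βA subunit, thus had the lowest WT level of βB among the main classes, while in KO the theca-like and germ-like levels did not differ beyond counting error.

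Fst was the member with the strongest contrast between classes. Granulosa-like cells held 526 CPM in WT (514 to 539) and 537 CPM in KO (526 to 547), and it was detected in 85.3% and 83.8% of them, or 63.7% and 64.0% after thinning. The median granulosa-like cell had 5 Fst UMIs in WT and 4 in KO, and 138 of 939 and 332 of 2044 cells had none. Theca-like cells held 25.99 and 21.1 CPM, epithelia-like cells 21.9 and 29.8 CPM and germ-like cells 3.76 and 3.77 CPM. The germ-like level was 0.714% and 0.703% of the granulosa-like level, below the median of 1.29% and 1.26% at which 8 granulosa markers were found in germ-like cells, and is read here as background. Inha and Inhbb in germ-like cells lay above theirs: germ-like Inha was 4.35% and 3.66% of its granulosa-like level, and germ-like Inhbb 27.1% and 15.1% of its epithelia-like level, where epithelia markers stood at 0.533% and 0.607%. The Fst levels of the other somatic classes also lay below the median that granulosa markers reached there: 4.94% and 3.93% of the granulosa-like level in theca-like cells, against a marker median of 6.31% and 5.78%, and 4.17% and 5.55% in epithelia-like cells, against 34.8% and 33.9%. Inha in epithelia-like cells, at 10.8% and 11.8%, was below the same median, and in theca-like cells, at 10.3% and 9.32%, above it. Single granulosa markers spread widely around these medians, from 2.41% to 105% in WT and from 3.78% to 107% in KO theca-like cells. In epithelia-like cells they ran from 3.61% to 121% in WT and from 0% to 121% in KO. The medians thus do not tell carried transcripts from those that these 2 classes express themselves. In theca-like cells most Fst sat in a handful of cells: 17 WT and 23 KO cells with 5 or more UMIs held 88.2% and 66.8% of the theca-like Fst UMIs, and Scrublet called 47.1% and 78.3% of those cells doublets.

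**Figure D1:**
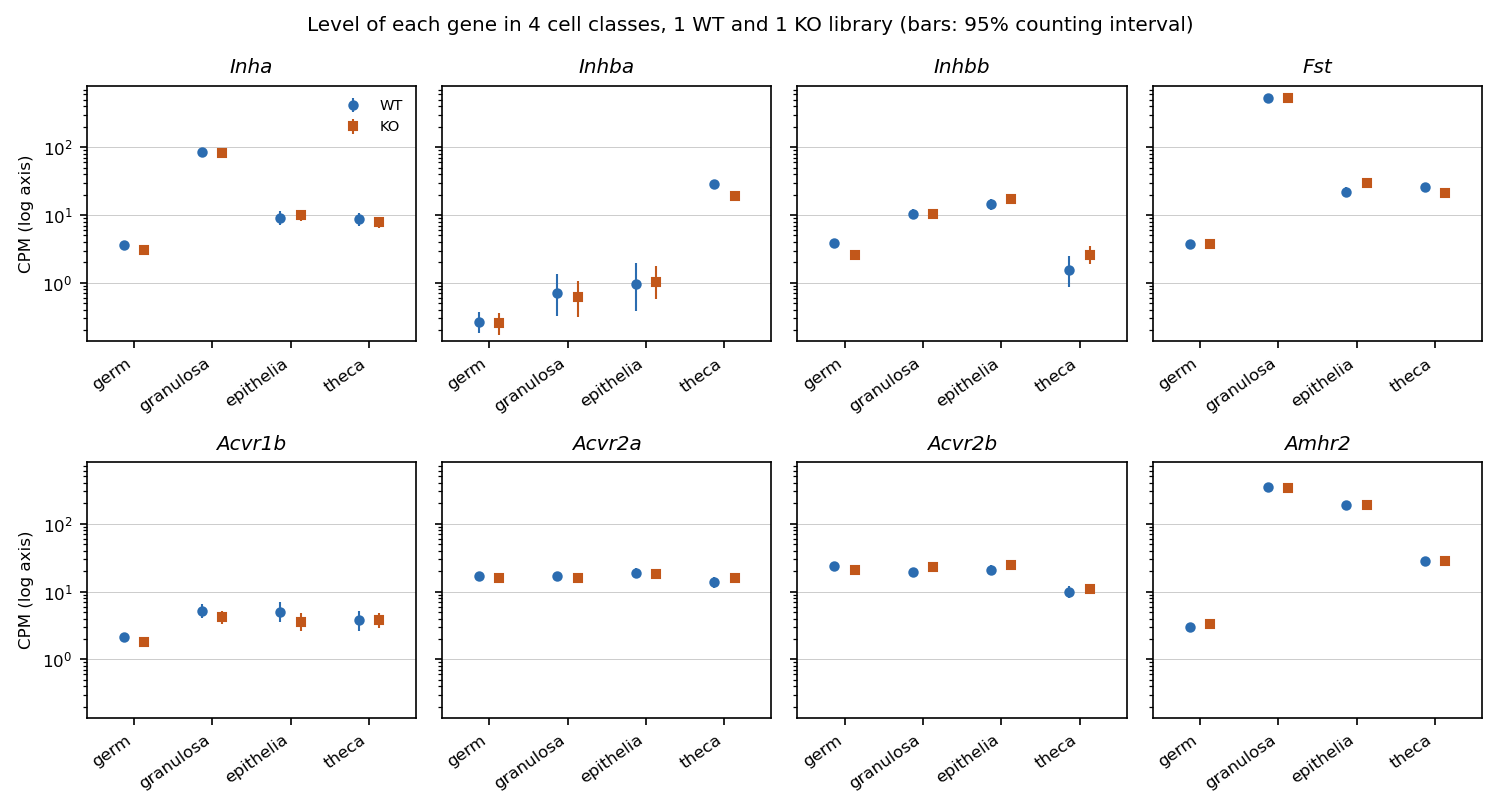
Level of each of the 8 genes (CPM, log axis) in germ-like, granulosa-like, epithelia-like and theca-like cells of the WT (circles) and KO (squares) library, with exact 95% counting intervals. Fst, Inha and Amhr2 peak in granulosa-like cells and Inhba in theca-like cells, while Acvr2a stays between 13.7 and 18.7 CPM in all 8 class and library combinations.

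The activin receptor genes were spread more evenly. Acvr1b, the type I receptor, was sparse throughout, at 2.12 CPM in WT and 1.83 CPM in KO germ-like cells. In the somatic main classes it ranged from 3.77 to 5.19 CPM in WT and from 3.59 to 4.20 CPM in KO. The order among the 3 somatic classes did not exceed counting error in either library.

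Acvr2a, a type II receptor gene, was measured at 17.2 CPM in WT and 15.6 CPM in KO germ-like cells, and at 17.0 and 15.6 CPM in granulosa-like cells. Epithelia-like cells held 18.7 and 18.4 CPM and theca-like cells 13.7 and 15.6 CPM. Among the main classes the theca-like level was below the epithelia-like one in WT by 0.45 on the log2 scale (0.10 to 0.80) and below the germ-like one by 0.33 (0.08 to 0.60), while in KO these classes were closer and only the epithelia-like level exceeded the germ-like one, by 0.24 (0.04 to 0.43). All other pairs had intervals that included 0. Acvr2b, the other type II receptor gene, was at 23.7 CPM in WT and 20.6 CPM in KO germ-like cells and at 19.2 and 23.0 CPM in granulosa-like cells. Epithelia-like cells held 21.0 and 24.7 CPM of Acvr2b, and theca-like cells 9.79 and 11.01 CPM. Theca-like cells were thus the lowest main class for Acvr2b in both libraries. Germ cell markers stood in theca-like cells at a median of 15.6% in WT and 21.9% in KO of their germ-like level. How far transcripts from germ-like cells add to somatic Acvr2a and Acvr2b was not tested.

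Amhr2 was highest in 2 somatic classes. Granulosa-like cells held 343 CPM in WT (333 to 354) and 333 CPM in KO (324 to 341), and epithelia-like cells 189 CPM (179 to 199) and 191 CPM (183 to 198). The gap between these classes exceeded counting error in both libraries. Theca-like cells held 28.0 and 27.9 CPM and germ-like cells 2.96 and 3.34 CPM, and the germ-like level, at 0.863% and 1.00% of the granulosa-like one, was again at or below the background of granulosa markers. The epithelia-like level was 55.0% and 57.4% of the granulosa-like one, against a marker median of 34.8% and 33.9%. The theca-like level was 8.17% and 8.39%, against 6.31% and 5.78%. Single markers reached 121% and 107% in these classes, so the medians do not tell carried Amhr2 transcripts from own ones. Amhr2 was detected in 96.7% of WT and 92.5% of KO granulosa-like cells, and in 64.1% and 62.5% after thinning. Its ligand gene Amh was close to absent: 4 UMIs in all WT and 7 UMIs in all KO granulosa-like cells, and no main class above 0.650 CPM.

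The small classes gave few counts for any member. No member exceeded 29.1 CPM in endothelia-like, immune-like or erythroid-like cells, except Fst in erythroid-like cells of WT, at 43.4 CPM on 16 UMIs from 1 cell.

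Germ-like cells were then set against granulosa-like cells within each library. Of 7 members with at least 50 UMIs over both classes, 5 were lower in germ-like cells by at least 0.5 on the log2 scale with an interval excluding 0, in WT and in KO: Fst, Inha, Inhbb, Acvr1b and Amhr2. By the same limit 75% of all genes tested differed between these classes in either direction in WT and 75.3% in KO, so the count of members in either direction is near the background. All 5 members were lower, whereas all genes past the limit divided into 5420 lower and 5539 higher in WT and 5591 lower and 5426 higher in KO. The log2 ratios were −7.13 in WT and −7.15 in KO for Fst, −6.86 and −6.64 for Amhr2, and −4.52 and −4.77 for Inha. Inhbb stood at −1.43 and −2.02 and Acvr1b at −1.29 and −1.19. The type II receptors of activin were the members near equality, with Acvr2a at 0.02 in WT (−0.18 to 0.23) and 0.00 in KO (−0.17 to 0.18), and Acvr2b at 0.31 (0.12 to 0.50) and −0.15 (−0.30 to −0.01). The median over the members was −1.43 in WT and −2.02 in KO, beside 0.11 and 0.04 over all genes tested.

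In the comparison of KO with WT, few members passed the limit of 0.5 on the log2 scale. In germ-like cells 1 of 8 members did, Inhbb, which was lower in KO, against 8.42% of all genes tested. In granulosa-like cells none of 7 did, against 6.06% of genes. In theca-like cells 1 of 8 did, Inhba, again lower in KO, against 7.2% of genes, and in epithelia-like cells none of 7, against 3.73%. With 8 or fewer members in a class, a single member past the limit cannot be set apart from these background shares. The medians of the members were −0.17, −0.02, −0.01 and 0.11 in the order in which these classes were just named, beside −0.05, −0.02, 0.01 and 0.03 over all genes.

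**Figure D2:**
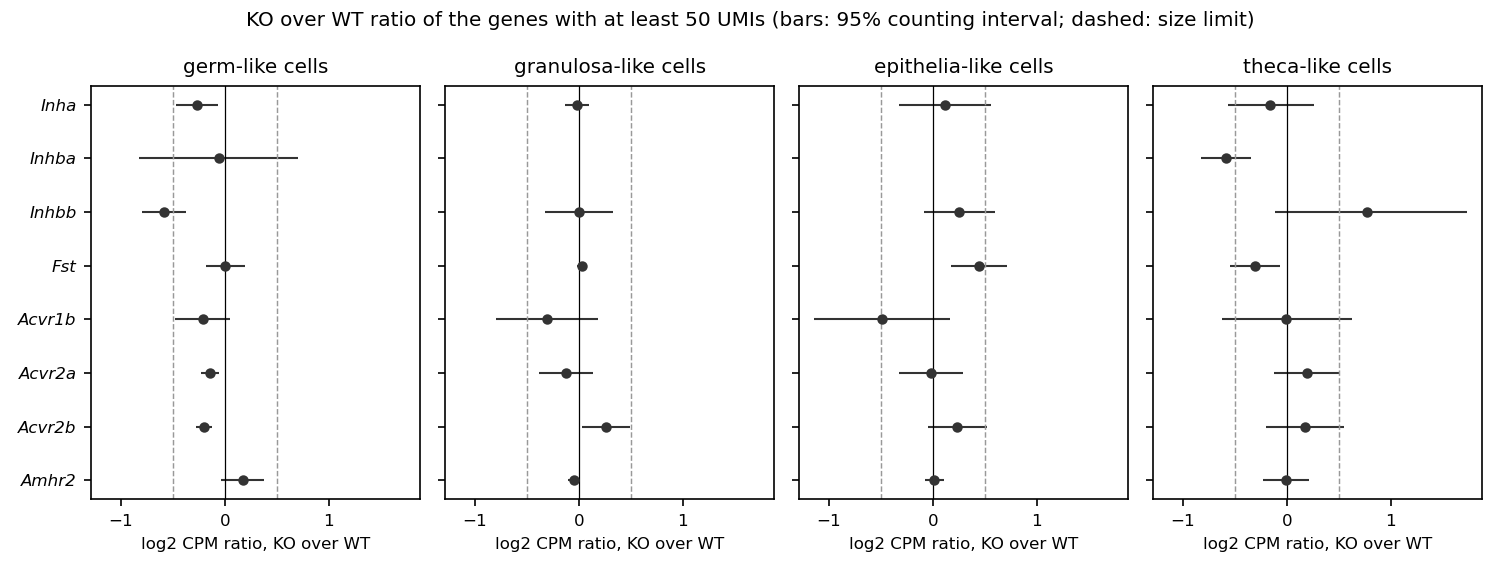
Log2 CPM ratio of KO over WT for each member with at least 50 UMIs over both libraries in each main class, with exact 95% counting intervals; the dashed lines mark the size limit of 0.5. Inhbb in germ-like cells and Inhba in theca-like cells, both at −0.59, are the 2 values past the limit whose interval excludes 0.

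The genes that set granulosa-like cells apart had narrow ratios. Fst was at 0.03 (−0.02 to 0.07), Inha at −0.02 (−0.13 to 0.09) and Amhr2 at −0.05 (−0.10 to 0.01) in granulosa-like cells, so counting error alone would allow changes of at most about 0.13 in either direction. Amhr2 was also at 0.02 (−0.08 to 0.11) in epithelia-like cells. The direction of these small values varied with the choice of cells, from −0.06 to 0.11 for Fst, −0.17 to 0.11 for Inha and −0.13 to 0.08 for Amhr2. The receptors of activin had germ-like ratios of −0.14 (−0.23 to −0.05) for Acvr2a, −0.20 (−0.28 to −0.12) for Acvr2b and −0.21 (−0.48 to 0.05) for Acvr1b, all short of the limit. On the higher side, Inhbb in theca-like cells was at 0.77 on 41 KO and 15 WT UMIs, but its interval of −0.11 to 1.73 included 0. Fst in epithelia-like cells was at 0.44 (0.17 to 0.71), and in theca-like cells at −0.30 (−0.54 to −0.06). Both rest on levels below the median of granulosa markers in these classes, where single markers varied widely.

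Inhbb in germ-like cells was 3.88 CPM on 467 UMIs in WT and 2.58 CPM on 314 UMIs in KO, a log2 ratio of −0.59 (−0.80 to −0.38). The 8 germ-like clusters were ordered by falling Stra8, the gene that retinoic acid induces at entry into meiosis, whose WT level ran from 1592 CPM in cluster 10 to 12.4 CPM in cluster 0. Along that order WT Inhbb was 0.830, 2.05, 0.952, 2.02, 2.37, 4.83, 5.42 and 5.76 CPM, and KO Inhbb 1.89, 1.22, 1.65, 2.53, 2.59, 2.29, 3.73 and 4.00 CPM. WT Inhbb was thus highest in the 3 clusters with the least Stra8. Those 3 clusters held 61.8% of WT but 38.5% of KO germ-like cells. Inside them the KO over WT ratio was −1.08 (−1.85 to −0.39), −0.54 (−1.11 to 0.01) and −0.53 (−0.91 to −0.14) in clusters 6, 4 and 0. In the other 5 clusters, with 6 to 70 UMIs per library, every interval included 0 and 4 of the 5 values were above it. With equal weight for each cluster, a choice made after the data were seen, the ratio was −0.29, short of the limit.

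Acvr1b followed a like course in WT, at 2.75 CPM (2.39 to 3.15) over clusters 0, 4 and 6, against 1.42 CPM (0.925 to 2.07) over clusters 1 and 9 and 0.856 CPM (0.542 to 1.28) over clusters 5, 7 and 10, so the rise was not particular to Inhbb. In KO the same groups held 2.30, 2.16 and 1.10 CPM of Acvr1b. WT Inhba was at 0.385, 0 and 0.112 CPM in these groups, on 29, 0 and 3 UMIs. The type II receptors followed other courses. Acvr2b was 27.3 CPM in the WT cluster highest in Stra8, fell to 15.2 CPM in cluster 5 and stood at 29.5 CPM in cluster 0, with 28.7, 15.2 and 24.0 CPM in KO. Acvr2a ranged from 11.9 to 25.6 CPM over WT clusters and from 10.97 to 19.3 CPM over KO clusters, and the lowest in both was cluster 10. Fst and Amhr2 reached 8.49 and 6.23 CPM in KO clusters 10 and 5, against at most 2.86 CPM in the same WT clusters, while germ-like cells as a whole differed little. Whether transcripts from granulosa-like cells contributed there was not tested.

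**Figure D3:**
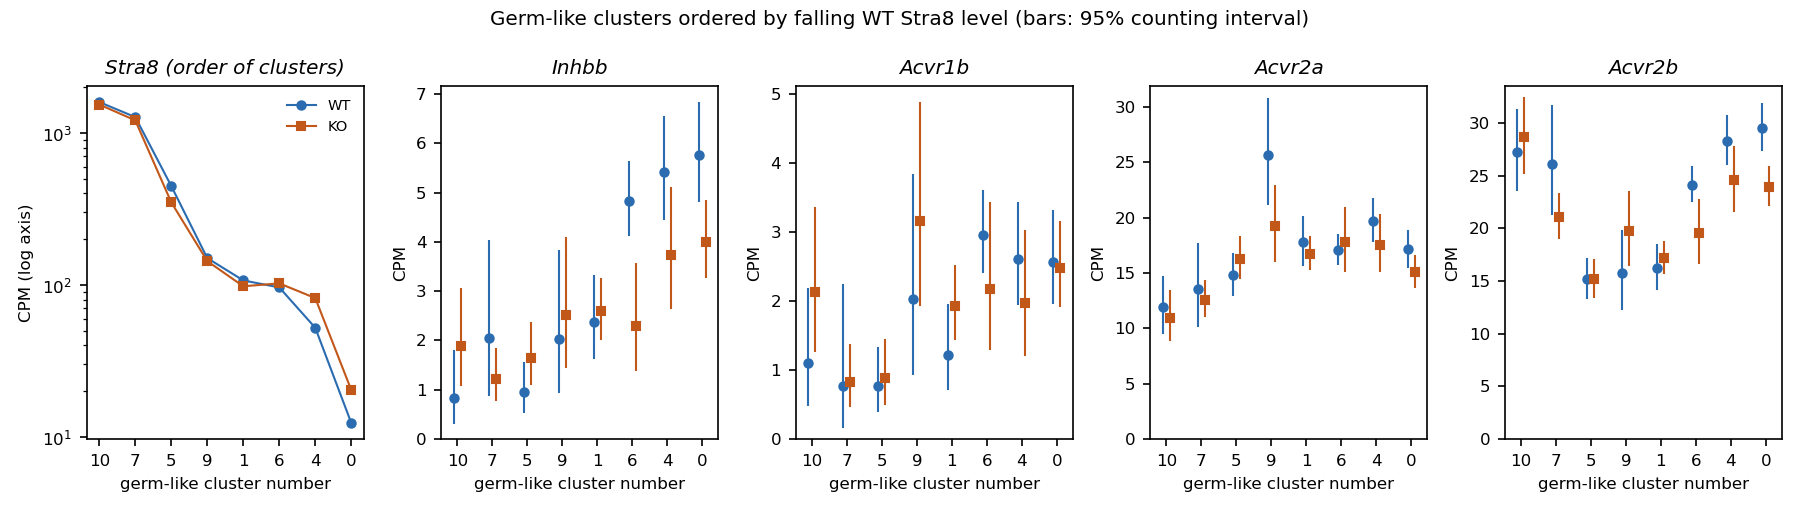
Stra8 (CPM, log axis) and Inhbb, Acvr1b, Acvr2a and Acvr2b (CPM, with exact 95% counting intervals) in the 8 germ-like clusters, ordered by falling WT Stra8, in WT (circles) and KO (squares). WT Inhbb is highest in clusters 6, 4 and 0 (4.83 to 5.76 CPM), where KO lies at 2.29 to 4.00 CPM, and Acvr2b is lowest in the middle of the order.

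Inhba in theca-like cells was 28.8 CPM on 283 UMIs in WT and 19.2 CPM on 302 UMIs in KO, a log2 ratio of −0.59 (−0.82 to −0.35). At the finer clustering resolution of 1.0 theca-like cells split into a sub-cluster with high Top2a, a gene of dividing cells (165 WT and 549 KO cells), and a larger one with low Top2a (651 and 1328 cells). A perivascular-like cluster (24 WT and 66 KO cells) was also named at this resolution, with Inhba at 0 and 6.40 CPM on 0 and 4 UMIs. Perivascular markers summed to 332 and 348 CPM in the theca-like class of the main clustering. In the Top2a-lower sub-cluster Inhba stood at 30.0 CPM in WT (interval 26.1 to 34.3) and at 25.9 CPM in KO (interval 22.5 to 29.6), which gave a log2 value of −0.21 (−0.49 to 0.07). For the Top2a-higher one the WT level was 29.2 CPM (interval 22.9 to 36.8), the KO level 12.2 CPM (interval 9.75 to 15.2) and the log2 value −1.26 (−1.73 to −0.78). The WT and KO intervals did not overlap in the Top2a-higher cells and overlapped in the Top2a-lower ones, and the intervals of the 2 log2 values did not meet. This split was made after the data were seen. In those cells germ cell markers summed to 1163 CPM in WT and 2532 CPM in KO, theca markers to 2106 and 1461 CPM, and Scrublet called 14.5% and 39.7% doublets. Without the called doublets Inhba in them was 36.2 and 16.4 CPM, a ratio of −1.14 (−1.69 to −0.60). Over all theca-like cells the ratio stayed negative but fell short of the limit without called doublets (−0.45), without cells that hold markers of another class (−0.35), after thinning (−0.48) and as a mean over cells (−0.46).

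Granulosa-like cells also split at the finer resolution, into a sub-cluster high in Lgr5, a marker of one pregranulosa lineage (583 WT and 1346 KO cells), and one lower in Lgr5 and higher in Foxl2 (353 and 686 cells). Inha was lower in the Lgr5-higher sub-cluster than in the Lgr5-lower one, at 63.6 against 121 CPM in WT and 73.8 against 101 CPM in KO. Inhbb ran the other way, at 12.4 against 7.58 CPM in WT and 12.1 against 7.40 CPM in KO. Amhr2 was also higher in the Lgr5-higher sub-cluster, at 371 against 299 CPM in WT and 383 against 252 CPM in KO. For these 3 genes, with called doublets kept, the order of the sub-clusters was the same in both libraries and each interval excluded 0. Without called doublets the order was the same, but KO Inhbb stood at 12.3 against 10.8 CPM and KO Amhr2 at 389 against 359 CPM. No interval between the sub-clusters was computed for those cells.

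Fst did not keep one order. In WT it was 493 CPM in the Lgr5-higher and 603 CPM in the Lgr5-lower sub-cluster, and in KO 575 and 483 CPM. The KO over WT ratio was therefore 0.22 (0.17 to 0.28) in the first and −0.32 (−0.39 to −0.25) in the second, both short of the limit. In the Lgr5-lower sub-cluster germ cell markers summed to 1091 CPM in WT and 2061 CPM in KO, and Scrublet called 9.63% and 30.0% of cells doublets, against 2.06% and 1.93% in the other sub-cluster. Without the called doublets Fst was 674 CPM in WT and 702 CPM in KO Lgr5-lower cells, a ratio of 0.06 (−0.02 to 0.14), and 511 and 584 CPM in Lgr5-higher cells, a ratio of 0.19 (0.14 to 0.25). Fst was then higher in the Lgr5-lower sub-cluster in both libraries. Inha in the Lgr5-lower sub-cluster likewise went from a ratio of −0.26 (−0.42 to −0.10) to 0.25 (0.08 to 0.43), and Amhr2 from −0.25 (−0.35 to −0.15) to 0.14 (0.02 to 0.26).

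**Figure D4:**
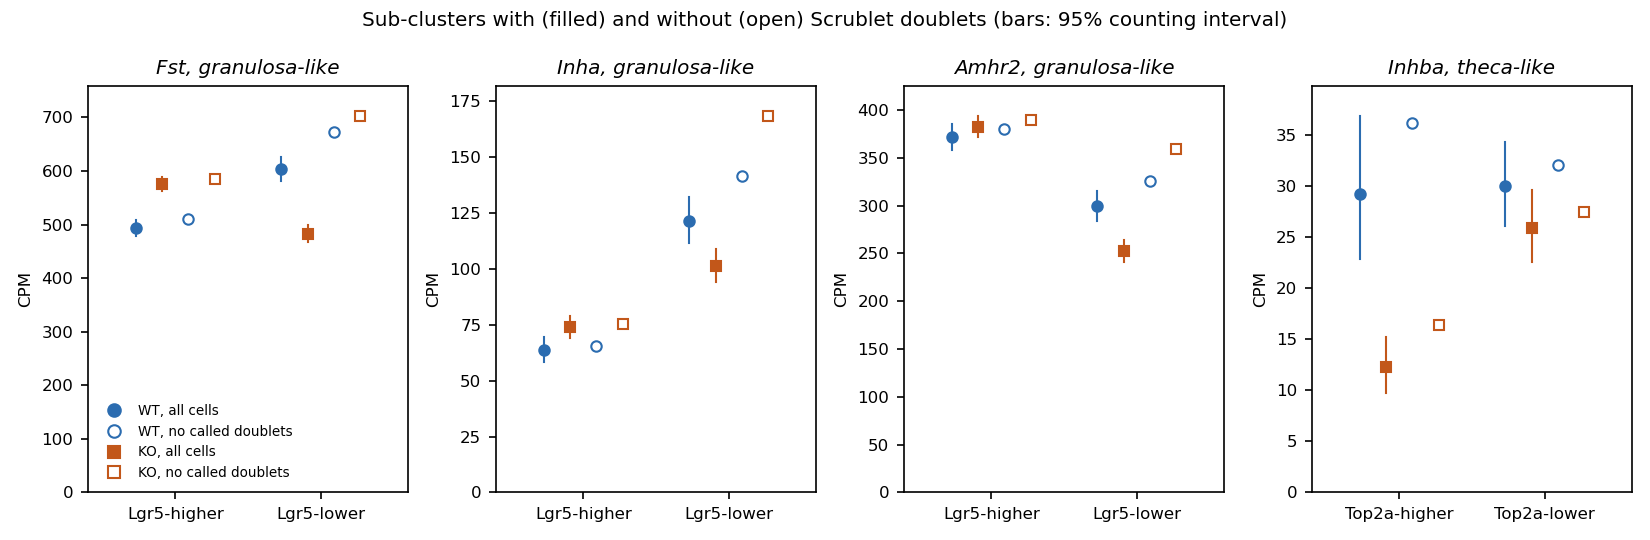
Fst, Inha and Amhr2 in the 2 granulosa-like sub-clusters and Inhba in the 2 theca-like sub-clusters (CPM), in WT (circles) and KO (squares), with all cells (filled, with exact 95% counting intervals) and without called doublets (open). In Lgr5-lower cells KO lies below WT with all cells (Fst 483 against 603 CPM) and above it without called doublets (702 against 674 CPM), while Inhba in Top2a-higher cells stays lower in KO (16.4 against 36.2 CPM).

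The wider pathway was followed in 36 further genes for TGF-β family ligands, antagonists, receptors and SMAD proteins. In germ-like cells 2 of the 29 with enough UMIs passed the limit, both lower in KO: Gdf9, an oocyte-derived ligand, at −0.58 (−0.92 to −0.24), and Smad6, an inhibitory SMAD, at −0.72 (−0.95 to −0.48). In granulosa-like cells 1 of 27 did, Smad3, a SMAD that activin activates, at −0.54 (−0.79 to −0.29). In theca-like cells 1 of 24 did, Smad6 at −0.53 (−0.95 to −0.12), and in epithelia-like cells 1 of 25, Bmpr1b, a BMP type I receptor, at −0.73 (−1.31 to −0.14). None passed in the higher direction. The shares of all genes past the limit were 8.42%, 6.06%, 7.2% and 3.73% in these 4 classes, so the counts in the list are near or below the background. The medians of the list were −0.14, −0.14, −0.15 and 0.10 in the same order of classes, to be read beside the medians over all genes given above. Gdf9 itself was sparse, at 1.51 CPM in WT and 1.01 CPM in KO germ-like cells against 2.20 and 1.89 CPM in granulosa-like cells.

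The list members with at least 50 CPM in a main class were highest in germ-like or in theca-like cells. Smad2, which activin receptors phosphorylate, was highest in germ-like cells at 76.1 CPM in WT and 68.0 CPM in KO, and so was Zfyve9, the SMAD anchor SARA, at 86.9 and 83.4 CPM. Tgfbr1, the TGF-β type I receptor, also led in germ-like cells, at 55.1 and 53.6 CPM. Smad7 and Bambi, both inhibitors of the pathway, were highest in theca-like cells, Smad7 at 121 and 108 CPM and Bambi at 152 and 122 CPM, against 6.57 and 4.70 CPM of Smad7 and 6.76 and 6.74 CPM of Bambi in germ-like cells. In granulosa-like cells Bambi stood at 82.2 and 71.1 CPM and Smad7 at 65.6 and 52.2 CPM. In epithelia-like cells they stood at 80.2 and 71.8 CPM and at 44.5 and 49.8 CPM. Tgfb2 was a theca-like ligand at 110 and 92.3 CPM, Smad5 stood at 86.3 and 72.4 CPM there, Smad4, the common SMAD, at 69.5 and 67.0 CPM, and Bmpr1a at 50.6 and 44.1 CPM. Smad4 was spread widely, at 64.4 and 64.6 CPM in granulosa-like, 59.5 and 60.7 CPM in epithelia-like and 43.2 and 37.0 CPM in germ-like cells. Smad3 was at 0.606 and 0.567 CPM in germ-like cells, against 20.1 and 13.8 CPM in granulosa-like cells.

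Over 25 combinations of cluster and library with at least 50 cells, the genes whose level followed each member most closely were found among 12312 genes, as Pearson's r of log2(CPM + 1). The points share 2 libraries, differ in depth and fall into few classes, so r describes this set only. For Inhba the closest genes were Postn, Fmo1 and Lrfn5 (0.98 each), and for Amhr2 they were Wnt6, Lgals7 and Rspo1 (0.98 to 0.99). For Fst they were Aldh1b1, Gm14226 and Gm2044 (0.96 to 0.97), and for Inha Tmem191c, Rgs11 and Dmrta1 (0.92 to 0.93). Inhbb had Fam187b, Ces1h and Hepacam (0.87 to 0.92), Acvr1b Fam76a, Thumpd2 and Arid4a (0.93 to 0.94), Acvr2a Ankrd13c, Ccdc57 and Slc24a5 (0.88 to 0.90), and Acvr2b Stard10, Prune and Kif21a (0.83 to 0.86). The granulosa markers used to name clusters include Wnt6.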

How the data were processed

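The authors deposited, per library, a matrix of UMI counts per gene and barcode made with Cell Ranger (3.0.2 in the matrix header) on mm10 per their processing notes, which also list Seurat 3.2.3; the gene annotation is not given in the sources used here. Totals were 168483330 UMIs in WT and 186117981 in KO. Cells were kept by the study's limits (WT 1500 to 6500 genes and 5500 to 40000 UMIs, KO 1200 to 5500 genes and 3000 to 30000 UMIs, both under 10% mitochondrial UMIs) and clustered in scanpy 1.11.5 (2000 variable genes, 30 components, 20 neighbours, Leiden resolution 0.5). Members and pathway genes were removed before clustering. Doublets were called with Scrublet at an expected rate of 8% and kept in the main values. Clusters were named "-like" from marker lists, each name needing at least 3 markers. The form of that rule was settled with the clusters in view. Cells of 1 library were summed by class, so that a level is the CPM of a class, its UMIs scaled to a total of 1000000. Intervals were exact Poisson, conditional binomial for ratios, and Clopper-Pearson for shares. With 1 library per group no test was run. The size limit was a log2 ratio of 0.5 with an interval excluding 0, for genes whose UMIs summed to 50 or more across the 2 sides. Named genes were the 8 members, Nr3c1 as the label check, pathway genes past the limit or with at least 50 CPM in a main class, and the 3 genes most like each member among genes with at least 500 UMIs. Amh, as the ligand of Amhr2, and Stra8, Top2a, Lgr5 and Foxl2, which describe clusters, were named outside that rule after their values were seen. Background for a member outside its leading class was the median level of that leading class's markers there. In somatic classes single markers varied widely around that median, so there it was given for comparison only. The members and lists were chosen with earlier results of these data known. The computation of ratios and intervals was checked on simulated Poisson counts, the model that the intervals assume. That check does not cover spread between cells or between libraries. Sub-clusters, equal cluster weights and the removal of somatic cells with germ cell markers were chosen after seeing the data. Promoters came from RefSeq (GRCm38.p6) and positions from GENCODE M21; the 50 bases after each start were left out.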

Additional observations from a re-analysis of the deposited data

Results flagged for a closer look

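In the cases below the KO over WT log2 ratio of a member ran in opposite directions in a pair of classes or sub-clusters, with intervals that exclude 0 on opposite sides. The share of all genes that meet this rule was not counted, so the number of cases is not a result about the members. None of these differences was tested, since each genotype is 1 library. Fst was at 0.44 (0.17 to 0.71) in epithelia-like and −0.30 (−0.54 to −0.06) in theca-like cells, where the value ranged from −0.82 without called doublets to 0.34 (−0.44 to 1.15) without cells that hold markers of another class. Acvr2b was at 0.26 (0.03 to 0.49) in granulosa-like and −0.20 (−0.28 to −0.12) in germ-like cells. Its germ-like value stayed between −0.23 and −0.10 and its granulosa-like value between 0.24 and 0.42 under the alternatives run, but the granulosa-like interval reached below 0 without cells that hold markers of another class (−0.01), after thinning (−0.05) and without called doublets and somatic cells with germ cell markers (−0.01). Fst in the granulosa-like sub-clusters was at 0.22 (Lgr5-higher) and −0.32 (Lgr5-lower), and Inha at 0.21 and −0.26. Without called doublets, which were 30.0% of the KO and 9.63% of the WT Lgr5-lower cells, both genes had values above 0 in both sub-clusters. Amhr2 in the theca-like sub-clusters was at −0.58 (Top2a-higher) and 0.38 (Top2a-lower), and at −0.19 (−0.92 to 0.56) and −0.01 (−0.30 to 0.28) without called doublets.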

How the results depend on the processing

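The members past the limit of 0.5 between germ-like and granulosa-like cells were 5 in each library under every alternative that changed the cells, the scaling or the clusters, and 3 (Fst, Inha, Amhr2) under the study's limit of 0.25 in ln(counts per 10000 + 1). Since 1 is added, genes of low level cannot reach that limit at any ratio. Inhbb and Acvr1b, at 10.5 and 5.19 CPM in WT granulosa-like cells, are such genes, so their loss from the count reflects their level. Between KO and WT, Inhbb in germ-like cells remained past the limit in each alternative choice of cells and scaling (−0.62 to −0.51), but not with equal cluster weights (−0.29), under which germ-like Fst moved from 0.01 to 0.61. Under a limit of log2 1 the counts of members and of pathway genes were 0 in every main class. They were also 0 under the study's limit, but for genes of low level that result was again fixed by their level. Inhbb, at 3.88 CPM in WT germ-like cells, could not pass it even if absent from KO. The 0 under the study's limit thus does not tell whether the ratios of such genes differ. The study also set a limit on adjusted p-values, which was not applied here because no test was run. Inhba in theca-like cells kept its direction throughout (−0.92 to −0.35), but the count of members there was 0 without cells holding markers of another class, after thinning and as a mean over cells, and 2 with common limits on cells (1500 to 5500 genes and 5500 to 30000 UMIs in both libraries), where Inhbb entered at 1.23 and 17.1% of all genes passed. Without called doublets the count there stayed at 1, with Fst (−0.82) in place of Inhba (−0.45). Among pathway genes the granulosa-like count of 1 was 2 with common limits and 0 without cells holding markers of another class, after thinning, as a mean over cells, and without doublets and somatic cells with germ cell markers. The theca-like count of 1 was 3 with common limits, 2 after thinning and 0 without doublets and somatic cells with germ cell markers. The epithelia-like count of 1 was 2 without called doublets and with members allowed in the clustering, and 0 after thinning. The cause of these shifts was not tested. Removing cells with markers of another class left 21 WT and 129 KO epithelia-like cells. No paired analysis was possible because each group holds 1 library, and for the same reason none could be left out in turn. Few UMIs lie behind Inhba outside theca-like cells (7 to 32 per library) and Inhbb in theca-like cells (15 and 41).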
